A study of Mus musculus with 6 samples.

Results

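The 10 genes described here encode proteins that fuse, divide and remove mitochondria, and a protein that maintains their DNA. They were taken by name as Mfn1, Mfn2 and Opa1 (fusion), Dnm1l, Fis1 and Mff (fission), Tfam (mitochondrial DNA) and Pink1, Bnip3 and Bnip3l (mitophagy). All 10 were found among 56941 Ensembl identifiers, and all 10 were among the 13299 genes with enough counts for a test. The data are RNA sequencing counts of 6 cultures of mouse T cells, 3 given S1P and 3 given vehicle, and the study asked how this lipid changes the transcriptome and the fitness of CD8+ T cells. The labels name naive CD8+ T cells purified from the spleen of B6 mice for both groups, and give no age. Cells of both groups were activated for 3 days with plate-bound anti-CD3, anti-CD28 and recombinant IL-2. The treated group received S1P at 5 µM and the control group vehicle, in each case 24 h after activation began. S1P is a lipid of blood and lymph and the ligand of S1PR1 and its sister receptors. The samples are labelled as biological replicates, and nothing says whether their cells came from separate mice, so that p-values measure the spread between these samples only.

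Mitochondria form a network that is remodelled by fusion and division. Mitofusins join outer membranes, Opa1 joins inner membranes, and Drp1, the product of Dnm1l, constricts the organelle after receptors such as Mff recruit it. Damaged or surplus mitochondria are removed by mitophagy, either along the route of the kinase Pink1 and ubiquitin or through receptors of the outer membrane such as Bnip3 and Bnip3l, which bind autophagosome proteins directly. In T cells, effector cells are known for more fragmented mitochondria and memory cells for more fused ones.

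Total counts lay between 13636095 and 17089831 in vehicle libraries and between 12048880 and 17384084 in S1P libraries. S1P replicate 2 stood apart, with a chi-square per gene of 31.4 and 17.9 against S1P replicates 1 and 3, where S1P replicates 1 and 3 differed by 5.97 and vehicle pairs by 3.77 to 3.97. The CD8 T cell markers summed to between 3351 and 4116 CPM (counts relative to library size, scaled by edgeR's TMM factors) in vehicle and between 3278 and 3504 CPM in S1P libraries. Most of this sum was Gzmb, at 2051 to 2642 CPM in vehicle and 2010 to 2139 CPM in S1P libraries. Cd8a itself was at 207 to 251 CPM in vehicle and 132 to 144 CPM in S1P libraries. Other lymphocyte transcripts were present in the cultures labelled CD8+, and Cd4 was above Cd8a in every S1P library. Cd4 was at 186 to 223 CPM in vehicle and 195 to 254 CPM in S1P libraries, and the 8 B cell markers summed to between 1082 and 1319 CPM and between 1132 and 1225 CPM. The 9 myeloid markers summed to at most 6.23 CPM in any library, with S100a8 and S100a9 at 0 counts, and the 6 erythroid markers to at most 1.02 CPM. The study's general culture methods name both isolated naive T cells and whole splenocytes as starting cells, and do not say which were sequenced.

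After S1P, the mitophagy genes Bnip3, Bnip3l and Pink1 rose and the fusion gene Mfn2 fell. Bnip3 was 3.24-fold, Bnip3l 2.36-fold and Pink1 1.59-fold higher, and Mfn2 was at 0.702 of its vehicle level. The other 6 genes were not called. Changes are given as log2FC, the log2 of the S1P level over the vehicle level, with its standard error (SE). Genes were called when edgeR's quasi-likelihood test gave a Benjamini-Hochberg adjusted p of 0.05 or less, over the whole set of tested genes, and the log2FC was 0.3 or more in size (1.23-fold). Thus 3 of the 10 genes were higher and 1 was lower, where 12.7% of all tested genes were called higher, 10.4% lower and 23.1% in either direction. Of the 6 genes not called, Fis1 passed the adjusted p with a change just under the threshold, and 5 did not pass the adjusted p. For 8 of the 10 genes, no S1P library lay within the range of the vehicle libraries, 5 higher and 3 lower after S1P, and 4 of these 8 were not called. Among all tested genes the groups did not overlap for 45.6%, so that a lack of overlap was common in these libraries.

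**Figure D1:**
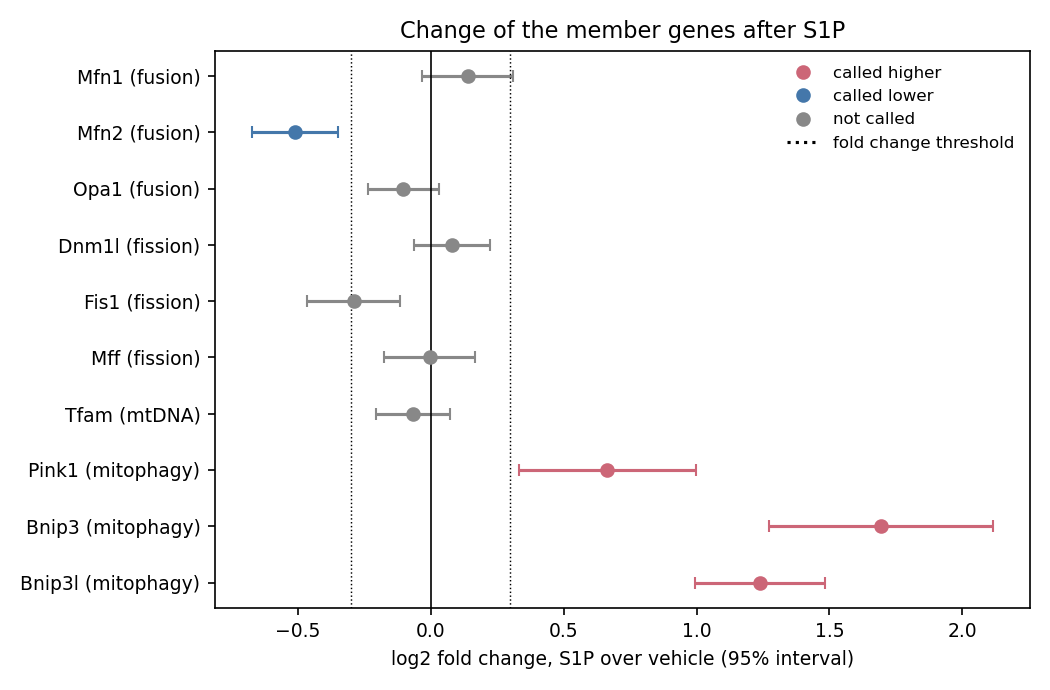
Log2FC of the 10 genes in S1P over vehicle libraries (horizontal axis), with points for the estimates, bars for 95% intervals and dotted lines at the threshold of 0.3 in either direction. Bnip3, Bnip3l and Pink1 lie to the right of the threshold, Mfn2 to the left, and the point of Fis1 (-0.29) just inside it.

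Among the fusion genes, Mfn2 alone was called. Mfn2 (ENSMUSG00000029020) encodes mitofusin 2, an outer-membrane GTPase that also tethers mitochondria to the endoplasmic reticulum. It lies on chr4:147955508-147989585 of GRCm39, minus strand, with 19 exons in its canonical transcript. Its level was 64.2, 61.4 and 62.1 CPM in vehicle replicates 1, 2 and 3 and 45.5, 40.7 and 45.5 CPM in S1P replicates 1, 2 and 3. All 3 S1P libraries lay below all 3 vehicle libraries, and the gap between the groups was wider than the spread within either. The mean was 62.6 ± 1.47 CPM (SD, n = 3) in vehicle and 43.9 ± 2.74 CPM (SD, n = 3) in S1P libraries. The log2FC was -0.51 (SE 0.07, 95% interval -0.67 to -0.35, adjusted p = 0.000584). On the linear scale the level fell by 29.8%, with an interval from -37.2% to -21.5%. The study's heatmap of these same libraries, as read from the picture, displays Mfn2 among memory genes, where the study's text does not name it. The direction of Mfn2 here is thus not independent of that choice. Of its exon bases, 11.8% lie under Fv1 on the opposite strand, a gene with a log2FC of -0.00099 (adjusted p = 0.996).

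Mfn1 (ENSMUSG00000027668), the other mitofusin, lies on chr3:32583599-32645888 of GRCm39, plus strand, with 18 exons. Its level was 41.0, 39.8 and 37.2 CPM in vehicle and 45.6, 42.7 and 41.5 CPM in S1P replicates 1 to 3. The groups did not overlap, but the lowest S1P library and the highest vehicle library were close together. Its log2FC was 0.14 (SE 0.08, 95% interval -0.03 to 0.31, adjusted p = 0.207), and the gene was not called. Exon bases under genes of the opposite strand made up 41.5%, mainly Gnb4, whose own log2FC was 0.14 (SE 0.09, adjusted p = 0.304). The libraries keep strand, but the strand setting of the counting is not given in the sources used here, so that reads of Mfn1 and Gnb4 may not be fully separated.

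Opa1 (ENSMUSG00000038084), the dynamin-like GTPase of the inner membrane that also shapes cristae, lies on chr16:29398108-29473858 of GRCm39, plus strand, with 29 exons and no exon base under another gene. Its level was 130.1, 134 and 127 CPM in vehicle and 122, 119.9 and 122 CPM in S1P replicates 1 to 3. All S1P libraries were below all vehicle libraries by a narrow margin. This amounts to a log2FC of -0.10 (SE 0.06, 95% interval -0.24 to 0.03, adjusted p = 0.240), and the interval lies within the fold threshold on both sides.

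None of the 3 fission genes was called by edgeR or limma-voom, while DESeq2 called 1 of them (Fis1), the 1 with an unadjusted p under 0.05. Dnm1l (ENSMUSG00000022789), which encodes the fission GTPase Drp1, lies on chr16:16128677-16176904 of GRCm39, minus strand, with 18 exons. Its level was 157, 157 and 158 CPM in vehicle and 163, 177 and 159 CPM in S1P replicates 1 to 3. The vehicle libraries agreed closely, and S1P replicate 2 stood above the other S1P libraries. Between groups, the log2FC was 0.08 (SE 0.07, 95% interval -0.06 to 0.22, adjusted p = 0.395). Genes of the opposite strand cover 53.4% of its exon bases, and the main one, the mitochondrial tyrosyl-tRNA synthetase gene Yars2, was itself lower after S1P (log2FC -0.41, SE 0.10, adjusted p = 0.00851). Reads of Dnm1l and Yars2 may likewise not be fully separated, so that Dnm1l is uncertain.

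Fis1 (ENSMUSG00000019054) encodes a small outer-membrane adaptor with a role in fission. It lies on chr5:136982101-136995089 of GRCm39, plus strand, with 5 exons. Its level was 47.2, 46.3 and 44.0 CPM in vehicle and 38.2, 34.4 and 39.6 CPM in S1P replicates 1 to 3. The S1P libraries were all below the vehicle libraries. The mean was 45.8 ± 1.64 CPM (SD, n = 3) in vehicle and 37.4 ± 2.71 CPM (SD, n = 3) in S1P libraries, a log2FC of -0.29 (SE 0.08, 95% interval -0.47 to -0.11, adjusted p = 0.0191). The change was just under the fold threshold, and the gene was called lower in 6 of 15 alternative analyses: DESeq2, scaling by total count only, no filter on low counts, and the fits without vehicle replicate 3, without S1P replicate 1 or without S1P replicate 3. Over all 15 alternatives its log2FC ran from -0.34 to -0.23 and its adjusted p from 0.0157 to 0.0823.

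Mff (ENSMUSG00000026150), an outer-membrane receptor for Drp1, lies on chr1:82702582-82730684 of GRCm39, plus strand, with 11 exons. Its level was 79.0, 76.5 and 71.8 CPM in vehicle and 82.7, 70.7 and 72.9 CPM in S1P replicates 1 to 3, so that the vehicle libraries lay within the range of the S1P libraries. The log2FC was -0.0040 (SE 0.08, 95% interval -0.18 to 0.17, adjusted p = 0.975).

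Tfam (ENSMUSG00000003923) encodes the factor that packages mitochondrial DNA and starts its transcription. It lies on chr10:71061287-71074110 of GRCm39, minus strand, with 7 exons and no exon base under another gene. Its level was 99.6, 105.5 and 103.7 CPM in vehicle and 96.4, 96.6 and 101.8 CPM in S1P replicates 1 to 3. S1P replicate 3 lay above vehicle replicate 1, and the groups overlapped. Tfam had a log2FC of -0.07 (SE 0.06, 95% interval -0.21 to 0.07, adjusted p = 0.470). The share of counts on genes that mitochondrial DNA itself encodes was 4.41 ± 0.282% (SD, n = 3) in vehicle and 5.74 ± 1.80% (SD, n = 3) in S1P libraries (exact permutation test, two-sided, p = 0.2). S1P replicate 2 held 7.80%, and without it the difference fell from 1.33 to 0.302 percentage points. Of 13 protein genes of mitochondrial DNA, 12 were tested and 0 were called by edgeR (5 had an unadjusted p under 0.05, and DESeq2 called 1 and limma-voom 0), with a median log2FC of 0.41 and a range from -0.06 to 0.57.

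All 3 mitophagy genes rose. Bnip3 (ENSMUSG00000078566) encodes an outer-membrane receptor that is a classical target of hypoxia-inducible factor 1. It lies on chr7:138490690-138511253 of GRCm39, minus strand, with 6 exons. Its level was 50.5, 70.6 and 33.2 CPM in vehicle and 179, 156 and 162 CPM in S1P replicates 1 to 3. The vehicle libraries were widely spread, with replicate 2 at the top and replicate 3 at the bottom, and the lowest S1P library was still far above the highest vehicle library. The mean was 51.4 ± 18.7 CPM (SD, n = 3) in vehicle and 166 ± 11.8 CPM (SD, n = 3) in S1P libraries. This gave a log2FC of 1.69 (SE 0.19, 95% interval 1.27 to 2.11, adjusted p = 0.000133), which is 3.24-fold with an interval from 2.42 to 4.33. Of the 31-base stretches of Bnip3 transcripts, 27.2% also occur in other genes, with the largest single share in the pseudogene Gm16439 (8.76%), which had at most 10 counts in any library. How reads that match several places were counted is not given in the sources used here, and the counts of Bnip3 itself ran from 516 to 3181.

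Bnip3l (ENSMUSG00000022051), also known as Nix, is the paralog of Bnip3 that clears mitochondria from maturing red cells. It lies on chr14:67222678-67246356 of GRCm39, minus strand, with 6 exons. Its level was 158, 195 and 135 CPM in vehicle and 403, 364 and 386 CPM in S1P replicates 1 to 3. Vehicle replicate 2 was again the highest and vehicle replicate 3 the lowest of their group, and the groups were far apart. The mean was 163 ± 29.9 CPM (SD, n = 3) in vehicle and 384 ± 19.7 CPM (SD, n = 3) in S1P libraries. The log2FC was 1.24 (SE 0.11, 95% interval 1.00 to 1.48, adjusted p = 3.82e-05), the smallest adjusted p of the 10 genes. Its pseudogene Bnip3l-ps, listed with 12, 12 and 10 counts in vehicle and 38, 30 and 29 counts in S1P replicates 1 to 3, had a log2FC of 1.66 (SE 0.27, adjusted p = 0.00119). Bnip3l shares 15.5% of its 31-base stretches with Gm58964, so that reads of Bnip3l and Gm58964 may be split between them.

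Pink1 (ENSMUSG00000028756) encodes the kinase that accumulates on depolarised mitochondria and phosphorylates ubiquitin. It lies on chr4:138039346-138053618 of GRCm39, minus strand, with 8 exons. Its level was 4.96, 5.13 and 4.37 CPM in vehicle and 7.99, 8.16 and 6.75 CPM in S1P replicates 1 to 3. The groups did not overlap, and S1P replicate 3 was the closest to vehicle. The mean was 4.82 ± 0.399 CPM (SD, n = 3) in vehicle and 7.63 ± 0.769 CPM (SD, n = 3) in S1P libraries, from 68 to 142 counts a library. The log2FC was 0.67 (SE 0.15, 95% interval 0.33 to 1.00, adjusted p = 0.00755). Its SE was above those of the fusion and fission genes, which had at least 392 counts in every library. Exon bases under Ddost on the opposite strand made up 37.4%, and Ddost, at 106 to 131 CPM in the 6 libraries, had a log2FC of -0.22 (SE 0.07, adjusted p = 0.0252). As for Mfn1 and Gnb4, reads of Pink1 and Ddost may not be fully separated, so that Pink1 is uncertain.

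**Figure D2:**
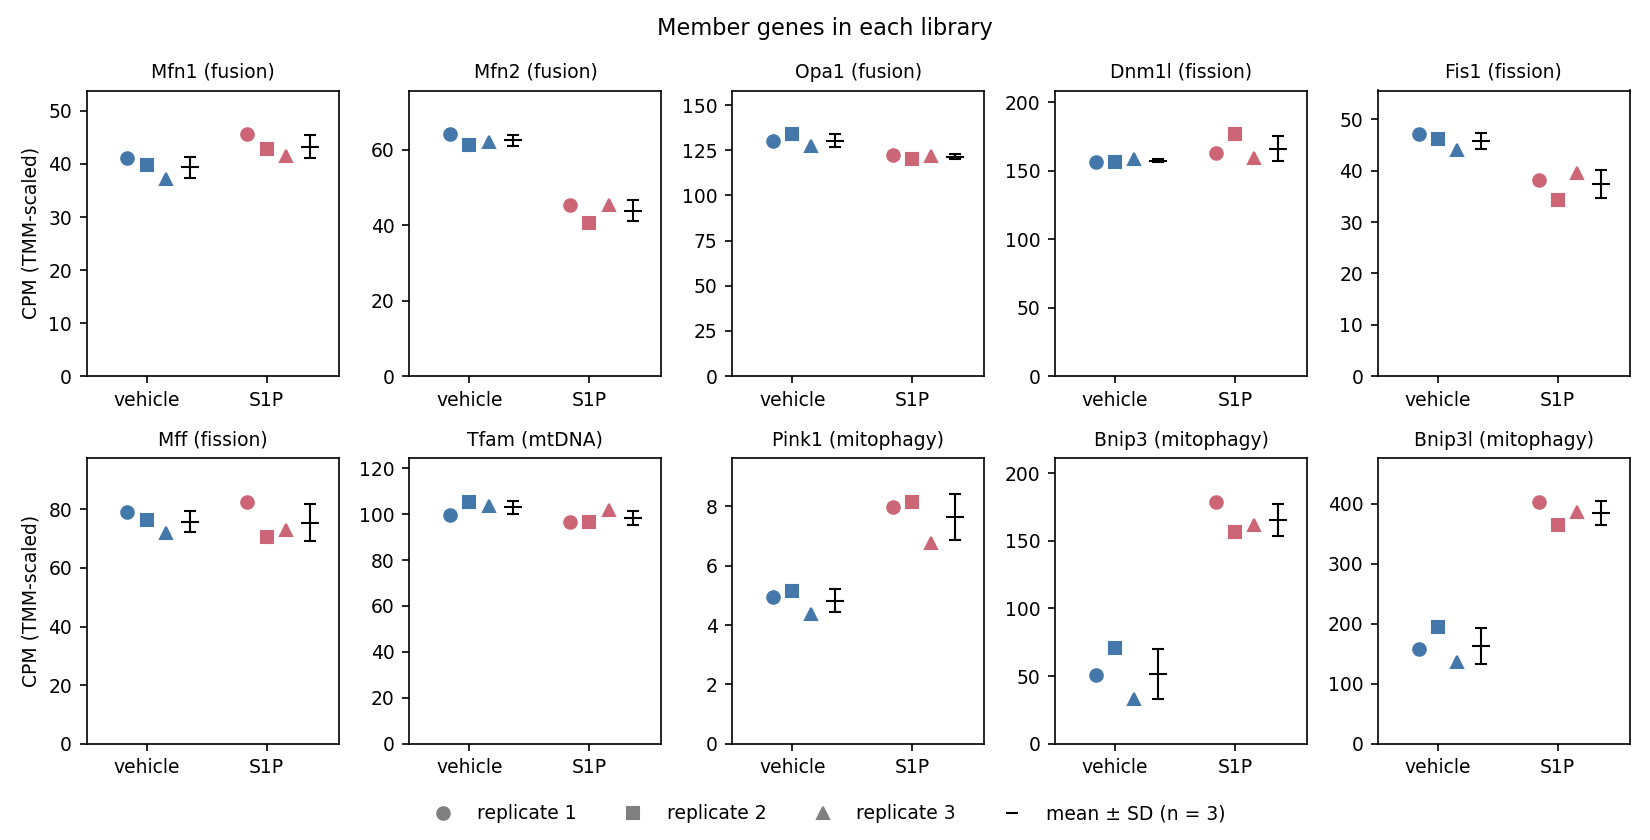
TMM-scaled CPM of each gene (vertical axes, all from 0) in the 3 vehicle and the 3 S1P libraries, with marker shapes for replicate numbers and bars for the mean ± SD (n = 3). Vehicle and S1P libraries are separated by a wide gap for Mfn2, Bnip3 and Bnip3l, while those of Mff and Tfam overlap.

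Markers of cell types were read against the 23.1% of all tested genes that were called, and the B cell and NK cell lists lay near that share. Of the 8 CD8 T cell markers, 1 was called higher, 2 were called lower and 5 were not called. Cd8a had a log2FC of -0.67 (SE 0.08, adjusted p = 0.000243) and Cd8b1 one of -0.55 (adjusted p = 0.00767). Cd2 had a log2FC of 0.33 (adjusted p = 0.0131), a call lost in 2 of the 6 leave-one-out fits. Of the 4 CD4 T cell markers, Zbtb7b and Cd40lg were called higher, and the call of Cd40lg was lost in 2 of the 6 leave-one-out fits. The list summed to between 229 and 272 CPM in vehicle and between 252 and 319 CPM in S1P libraries. Of the 8 B cell markers, 0 were called higher, 2 were called lower (Ms4a1 and Cd22) and 6 were not called. Ms4a1 had a log2FC of -0.39, a call lost in 2 of the 6 leave-one-out fits, and Cd22 one of -0.44. Pax5 went the other way, with a log2FC of 0.33 and groups that did not overlap, but was not called (adjusted p = 0.0699). The 6 NK cell markers summed to between 80.7 and 91.0 CPM in vehicle and between 51.7 and 61.0 CPM in S1P libraries. Eomes, which effector CD8 T cells express too, was the only 1 called of the 4 tested (log2FC -0.86). It made up most of this sum, at 62.03 to 66.89 CPM in vehicle and 31.34 to 42.12 CPM in S1P libraries. The other tested markers had log2FC values of 0.11 (Klrc1), 0.02 (Klrd1) and -0.24 (Ncr1). The part of these markers in the changes of Mfn2, Bnip3, Bnip3l and Pink1 was not tested, and in bulk RNA fewer cells of a type and less RNA per cell cannot be told apart.

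Levels were compared between genes per length, as FPKM over the exon length of each gene. In vehicle libraries Bnip3l came first with 29.6 ± 5.44 FPKM (SD, n = 3), followed by Tfam with 21.9 ± 0.639 and Dnm1l with 21.6 ± 0.143. The libraries of Tfam and Dnm1l overlapped, as did those of Fis1 (14.7 ± 0.528 FPKM) and Opa1 (14.1 ± 0.369), and those of Opa1 and Bnip3 (11.9 ± 4.33). Mff at 6.85, Mfn2 at 5.93, Mfn1 at 2.92 and Pink1 at 1.19 FPKM followed without overlap. After S1P the order changed at the top: Bnip3l stood at 69.8 ± 3.59 and Bnip3, sixth in vehicle, came second at 38.4 ± 2.74 FPKM (SD, n = 3). Dnm1l at 22.8 FPKM then stood before Tfam at 20.9, and Opa1 at 13.1 before Fis1 at 12.02, and no neighbours in the S1P order overlapped. The libraries of both pairs overlapped in vehicle, so that their order there was not resolved. Among all tested genes, the mean FPKM of Bnip3l was at percentile 95.4 and that of Pink1 at percentile 30.4.

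Ratios of counts within a library do not depend on how libraries are scaled. They do depend on how reads were assigned, and exons of Mfn1, Dnm1l and Pink1 lie partly under genes of the opposite strand. The ratio of Mfn2 to Mfn1 was 1.56, 1.54 and 1.67 in vehicle and 0.996, 0.953 and 1.10 in S1P replicates 1 to 3, so that Mfn2 had more counts than Mfn1 in every vehicle library and about as many in the S1P libraries. On the log2 scale this ratio went from 0.67 ± 0.06 to 0.02 ± 0.10 (SD, n = 3 each), a difference of -0.65. The ratio of Mfn2 to Dnm1l, a fusion and a fission gene, was 0.410, 0.392 and 0.392 in vehicle and 0.280, 0.230 and 0.286 in S1P replicates 1 to 3, a difference of -0.59 on the log2 scale. For Opa1 to Dnm1l the difference was smaller, -0.18. The ratio of Bnip3 to Bnip3l was 0.319, 0.362 and 0.245 in vehicle and 0.444, 0.430 and 0.419 in S1P replicates 1 to 3, a log2 difference of 0.50. The ratio of Bnip3 to Pink1 was 10.2, 13.7 and 7.59 in vehicle and 22.4, 19.2 and 24.0 in S1P libraries, a log2 difference of 1.09. In both ratios Bnip3 gained on its partner. The groups did not overlap for any of the 5 ratios, and each had an exact two-sided permutation p of 0.1 (0.1 after Benjamini-Hochberg adjustment over the 5), the smallest that 3 against 3 allows.

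**Figure D3:**
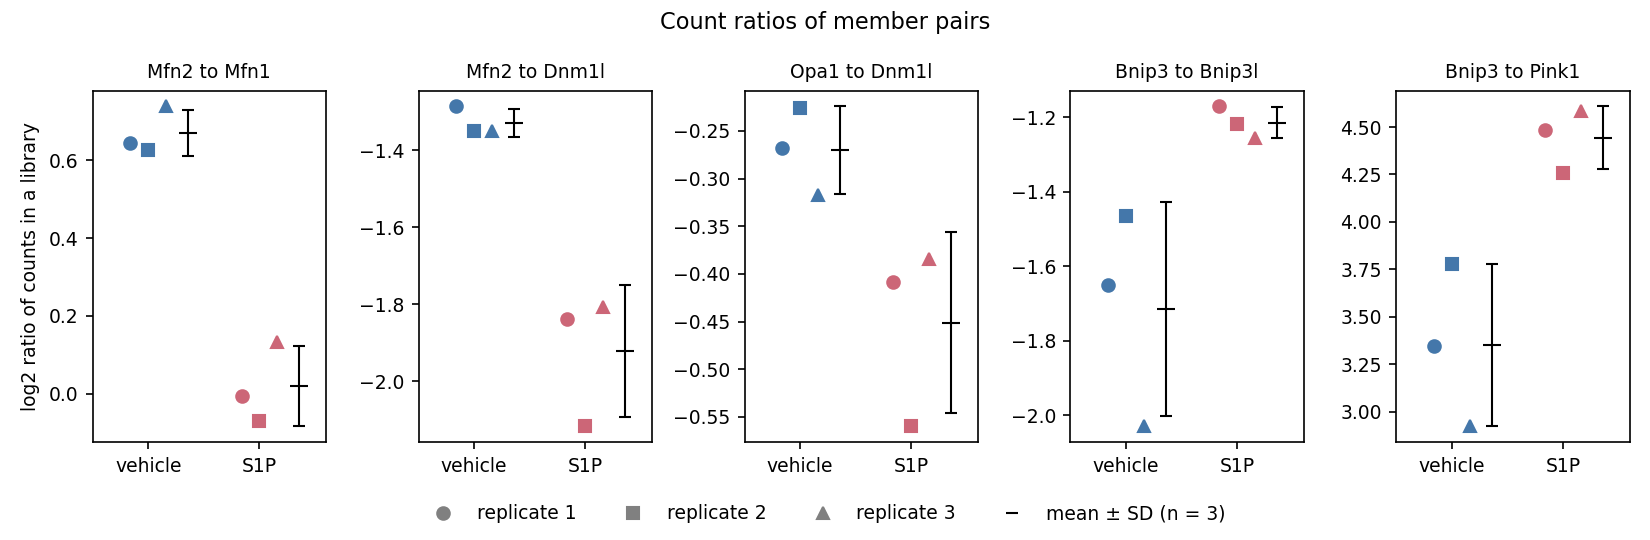
Log2 ratio of the counts of 2 genes in each library (vertical axes, each with its own range), with marker shapes for replicate numbers and bars for the mean ± SD (n = 3). All 3 ratios to Mfn1 or Dnm1l are lower and both ratios of Bnip3 are higher in S1P libraries, with no overlap.

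The 250 bases before the start site of 3 called genes, Bnip3, Pink1 and Mfn2, are shown because these genes moved in different directions. They were copied from RefSeq on GRCm38.p6, an older build than that of the gene positions above, and 9 of the 10 genes had an entry. Each runs 5′ to 3′ toward the start site, and capitals mark the E-box CACGTG, which holds the core ACGTG of the hypoxia response element on both strands.
Bnip3, chr7:138909507-138909756, minus strand: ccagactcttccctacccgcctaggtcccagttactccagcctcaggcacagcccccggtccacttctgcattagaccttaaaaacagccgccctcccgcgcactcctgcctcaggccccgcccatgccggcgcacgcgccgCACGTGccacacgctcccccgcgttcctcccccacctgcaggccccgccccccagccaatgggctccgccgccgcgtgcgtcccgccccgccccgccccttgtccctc
Pink1, chr4:138326297-138326546, minus strand: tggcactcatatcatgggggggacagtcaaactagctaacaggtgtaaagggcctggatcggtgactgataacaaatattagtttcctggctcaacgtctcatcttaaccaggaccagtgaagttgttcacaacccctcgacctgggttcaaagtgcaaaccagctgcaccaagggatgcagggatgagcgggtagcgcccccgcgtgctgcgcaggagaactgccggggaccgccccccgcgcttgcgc
Mfn2, chr4:147904910-147905159, minus strand: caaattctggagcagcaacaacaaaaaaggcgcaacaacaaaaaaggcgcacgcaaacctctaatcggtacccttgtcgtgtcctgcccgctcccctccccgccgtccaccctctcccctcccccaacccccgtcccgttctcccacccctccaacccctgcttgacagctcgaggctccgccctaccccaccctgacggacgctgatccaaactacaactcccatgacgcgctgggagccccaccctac
The E-box of Bnip3 begins 108 bases before its start. On either strand, CACGTG occurs in 6.02% and ACGTG in 16.6% of the 32851 promoters of the table. Neither was in the window of Pink1. Mfn2 has 3 start sites in the table, and the first of them, shown above, holds no ACGTG, while the window of another holds it 39 bases before its start. Among genes that were not called, the letters CCGGAAGT, a site of ETS factors, were in the windows of Mfn1, Fis1 and Tfam (2.88% of all promoters), and GCGCATGC, the core of a site of NRF1, was in that of Opa1 (2.26%). TGATGNAA, the shape of a C/EBP-ATF response element, was found in none of the 9 and in 3.45% of all promoters. A match describes letters only, and no binding was measured.

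The other genes of mitochondrial dynamics and quality control were read as 7 lists, 115 genes in all. Of these, 109 were tested, 10 were called higher and 22 lower, which is 29.4%, where 23.1% of all tested genes were called, 12.7% higher and 10.4% lower. The median log2FC of these genes was -0.06, and that of all tested genes 0.01. Without vehicle replicate 1 or without vehicle replicate 3, 14 of the listed genes were lower. In the lists for fusion, biogenesis, cristae and transport, 0 genes were called higher by edgeR, DESeq2 or limma-voom, and 1 gene each of the fusion and cristae lists had an unadjusted p under 0.05 in that direction. That of the fusion list, Afg3l2, had an adjusted p of 0.0182 by edgeR with a log2FC of 0.24, which is under the fold threshold. That of the cristae list, Chchd6, had a log2FC of 0.40 and an adjusted p of 0.0885.

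Of 14 other fusion and inner-membrane genes, 13 were tested, 0 were higher and 4 were lower, with a median log2FC of -0.28. The prohibitins Phb2 and Phb1, scaffold proteins of the inner membrane that protect Opa1 from cleavage, had log2FC values of -0.49 (SE 0.07, adjusted p = 0.000458) and -0.43 (adjusted p = 0.00198). Phb2 went from 181 ± 4.82 to 129 ± 7.59 CPM (SD, n = 3 each). The rhomboid protease gene Parl, whose product cleaves Pink1, and the outer-membrane gene Mtch2 both had a log2FC of -0.33 (adjusted p = 0.0161 and 0.00408). Parl lost its call in 4 of the 6 leave-one-out fits, without vehicle replicates 1 and 3 and S1P replicates 1 and 2, and Mtch2 lost it without S1P replicate 2.

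Of 15 other fission genes, 14 were tested, 2 were higher and 4 lower, with a median of -0.13. Mtfp1, which promotes division from the inner membrane, had the largest change with a log2FC of -1.03 (SE 0.18, adjusted p = 0.00194), from 4.77 ± 0.285 to 2.34 ± 0.189 CPM (SD, n = 3 each). Mief2, a receptor of Drp1, fell by 0.83 on the log2 scale (adjusted p = 0.0165), and this call was lost without vehicle replicate 1, vehicle replicate 3 or S1P replicate 3. Mtfr1l fell by 0.67 (adjusted p = 0.000786) and the phosphatase gene Pgam5 by 0.51 (adjusted p = 0.00365). Spire1, an actin nucleator, had a log2FC of 0.54 (adjusted p = 0.00164), and Sh3glb1, a membrane-bending protein, one of 0.35 (adjusted p = 0.00382), which was lost without S1P replicate 2. Genes of the opposite strand cover 39.7% of the exon bases of Mtfr1l and 27.1% of those of Mief2, so that both are uncertain.

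Of 35 other mitophagy and autophagy genes, 33 were tested, 5 were higher and 3 lower, with a median of 0.06. The receptor gene Optn, which links ubiquitin-coated mitochondria to the autophagosome, had a log2FC of 0.94 (SE 0.18, adjusted p = 0.00283), from 3.95 ± 0.793 to 7.72 ± 0.897 CPM (SD, n = 3 each). Atg9a, a lipid scramblase, had 0.66 (adjusted p = 0.00788), and 25.2% of the exon bases of Atg9a overlap another gene on the same strand. Rb1cc1, the scaffold FIP200 of the initiation complex, had 0.53 (adjusted p = 0.00118), and the cargo receptor Nbr1 had 0.40 (adjusted p = 0.00120). These 4 calls held without each library in turn, whereas Usp8 (0.35, adjusted p = 0.0353) lost its call in 5 of the 6 fits and stood at 0.18 without S1P replicate 2. The 3 lower genes, the mitophagy receptors Fkbp8 (-0.32, adjusted p = 0.0234) and Bcl2l13 (-0.30, adjusted p = 0.0410) and the autophagy gene Atg5 (-0.31, adjusted p = 0.0317), each lost their call in 5 of the 6 leave-one-out fits and with upper-quartile factors. Bcl2l13 also lost it with scaling by total count only and with a minimum of 10 counts in every library. Their changes were smallest without S1P replicate 2, at -0.21 for Fkbp8, -0.21 for Bcl2l13 and -0.23 for Atg5, and 31.4% of the exon bases of Bcl2l13 are overlapped on the opposite strand.

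Of 24 other genes that maintain or transcribe mitochondrial DNA, all were tested, 3 were higher and 4 lower, with a median of -0.05. Lonp1, the matrix protease that degrades Tfam, had a log2FC of 0.84 (SE 0.07, adjusted p = 2.1e-05), from 161 ± 7.74 to 288 ± 11.9 CPM (SD, n = 3 each). The primase-polymerase gene Primpol had 0.44 (adjusted p = 0.00556) and Rrm2b, a subunit of ribonucleotide reductase, 0.39 (adjusted p = 0.00539). The mitochondrial RNA polymerase gene Polrmt had -0.54 (adjusted p = 0.00242) and Lrpprc, whose product stabilises mitochondrial mRNA, -0.43 (adjusted p = 0.000572). Tefm (-0.48, adjusted p = 0.0326) lost its call in 4 of the 6 fits, without vehicle replicates 1 and 2 and S1P replicates 1 and 2. Slirp (-1.59, adjusted p = 0.0196) rested on 1 to 23 counts, with 57.3% of the exon bases overlapped on the opposite strand, and lost its call without vehicle replicate 1 or 3 and with DESeq2.

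Of 10 regulators of mitochondrial biogenesis, 9 were tested, 0 were higher and 2 lower, with a median of -0.21. The coactivator gene Pprc1 had a log2FC of -0.50 (SE 0.07, adjusted p = 0.000299), and the nuclear receptor gene Esrra had -0.37 (adjusted p = 0.0361), a call lost in 5 of the 6 leave-one-out fits, with DESeq2 and with no filter on low counts. Genes of the opposite strand cover 29.6% of the exon bases of Esrra. Ppargc1a had between 1 and 13 counts and was not tested. All 11 genes of cristae organisation were tested, 0 were higher and 4 lower, with a median of -0.16: Mtx1 (-0.56, adjusted p = 0.00546), Apoo (-0.42, adjusted p = 0.00668), Samm50 (-0.34, adjusted p = 0.00743) and Mtx2 (-0.31, adjusted p = 0.0128). Exons of Mtx1 are overlapped on the opposite strand over 63.5% of their bases. Samm50 lost its call without S1P replicate 2, and Mtx2 lost it without vehicle replicate 1, vehicle replicate 3 or S1P replicate 2 and with upper-quartile factors. Of 6 transport genes, 5 were tested and Rhot2, a Miro GTPase that couples mitochondria to motors, was the 1 lower gene (-0.51, adjusted p = 0.00313), and 31.2% of the exon bases of Rhot2 overlap another gene on the same strand.

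**Figure D4:**
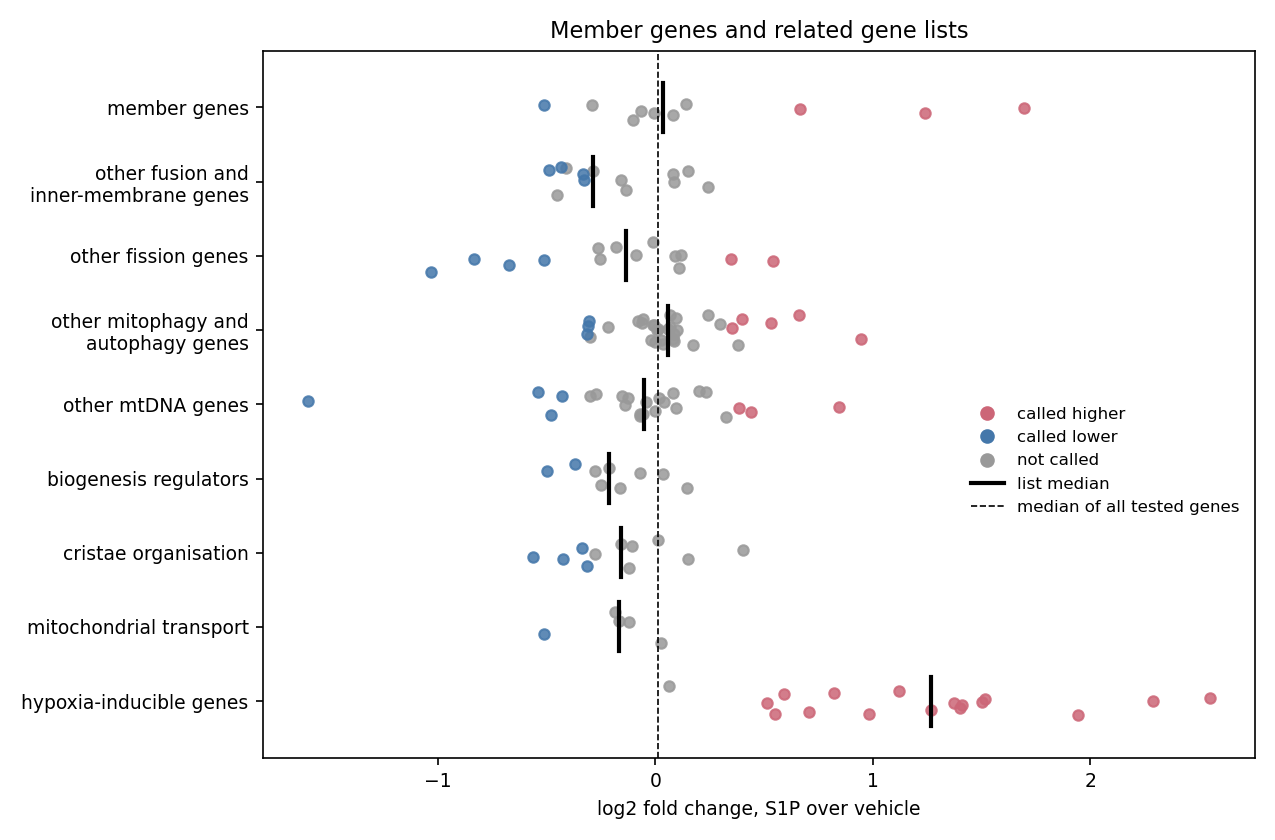
Log2FC of each tested gene in S1P over vehicle libraries (horizontal axis) for the 10 genes, 7 related lists and hypoxia-inducible genes, with short bars for list medians and a dashed line at the median of all tested genes (0.01). The lists for fusion, biogenesis, cristae and transport have medians between -0.28 and -0.16 and no gene called higher, while 16 of 17 hypoxia-inducible genes are called higher.

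Bnip3 and Bnip3l are known as genes induced in hypoxia, and 18 other such genes outside glycolysis were read beside them. Of these, 17 were tested, 16 were higher and 0 lower (also 0 lower with DESeq2, with limma-voom or at an unadjusted p under 0.05), with a median log2FC of 1.27. Among all tested genes, 12.7% were called higher and 10.4% lower. The collagen prolyl hydroxylase gene P4ha2 had 2.55 (adjusted p = 4.15e-05), Ndrg1 had 2.29 (adjusted p = 1.27e-05) and Adm, which encodes adrenomedullin, had 1.94 (adjusted p = 0.000536), and 31.9% of the exon bases of Adm are overlapped on the opposite strand. Ddit4, Ero1a and Mxi1 followed, with values from 1.51 down to 1.41. The study counts Ero1a among genes of the unfolded protein response, and what raised the genes of this list was not tested. Plin2, with a log2FC of 0.06, was the only tested gene of the list that was not called. Bnip3, Bnip3l and Pink1 thus changed by amounts inside the range of this list. Bnip3 (1.69) was above its median, and Bnip3l (1.24) and Pink1 (0.67) were below it.

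The same genes also differed among the vehicle libraries. Vehicle replicate 2 was the highest and vehicle replicate 3 the lowest library of their group for Bnip3, Bnip3l, Pink1 and Opa1 (4 of the 10 genes), for 14 of the 17 hypoxia-inducible genes (82.4%) and for 17.9% of all tested genes. Over the 15 alternatives the log2FC of Bnip3 was lowest without vehicle replicate 3 (1.46) and highest without vehicle replicate 2 (1.98), and it was called higher in each of them.

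**Figure D5:**
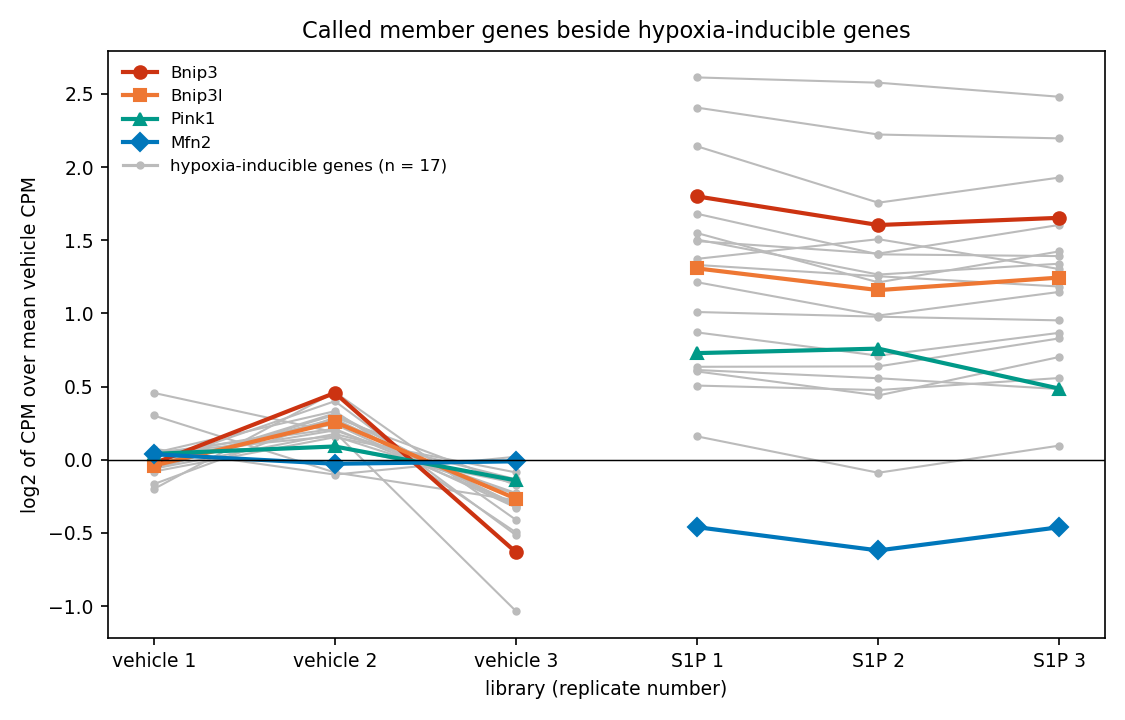
Log2 of the CPM in each library over the mean of the vehicle libraries (vertical axis) for the 4 called genes and, in grey, 17 hypoxia-inducible genes, where lines join the libraries of a group only to trace a gene. Bnip3 and Bnip3l peak in vehicle replicate 2 and are lowest in vehicle replicate 3 with most of the grey genes, whereas Mfn2 is nearly level across the vehicle libraries.

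The genes most like Bnip3 and Mfn2 were sought by Pearson's r of log2 CPM over the 6 libraries, among the 8737 genes whose mean log2 CPM was 3 or more. These values share the 6 libraries and the difference between the groups, and they are given as a description. For Bnip3 the highest were Dubr (0.999), Ankrd37 (0.998), Slc2a1 (0.998), Ndrg2 (0.998) and Slc2a3 (0.997). Ankrd37 is also on the list of hypoxia-inducible genes. Genes of the opposite strand cover 81.4% of its exon bases, so that it is uncertain. Slc2a1 and Slc2a3 encode glucose transporters, and their log2FC values were 0.95 and 2.02. For Mfn2 the highest were Telo2 (0.999), Sgk3 (0.999), Ogdh (0.999), Ywhab (0.998) and Gpr174 (0.998). Telo2 encodes a chaperone adaptor of PI3K-related kinases and Ogdh a subunit of 2-oxoglutarate dehydrogenase, and their log2FC values were -0.68 and -0.43.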

How the data were processed

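RNA-seq was performed on 3 vehicle and 3 S1P samples, which were grouped by the treatment in the sample labels. The authors made strand-specific polyA libraries, sequenced them paired-end, and trimmed, aligned and counted the reads with Trim Galore, STAR and featureCounts. The submitters' processing notes name GRCm39. The annotation release, strand setting and treatment of multimapping reads are not given in the sources used here. The deposited values are raw counts per Ensembl gene, without normalization. The authors also used DESeq2, and their fold changes were not used.

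Identifiers were named with GENCODE vM39 (56323 of 56941 matched). Genes kept by filterByExpr were TMM-scaled and tested with edgeR 4.0.16 (glmQLFit, glmQLFTest, R 4.3.3, limma 3.58.1), fitting treatment alone, and p-values were adjusted by Benjamini-Hochberg over 13299 genes. The common biological coefficient of variation was 0.0826. Log2 CPM used a prior count of 2. FPKM used the union of exons. Promoters came from RefSeq (GRCm38.p6). The model was tested on simulated data. Alternatives were DESeq2 1.42.0, limma-voom, RLE, upper-quartile and total-count scaling, mitochondrially encoded genes left out, no filter or at least 10 counts in every sample, the replicate number as a block, other fold change thresholds, each library left out in turn, 0.5 added to each count of a ratio, and the mitochondrial share over tested genes.

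The members, lists and tests were chosen with earlier results of these data known, and no list was tested as a set. The text names all 10 members, up to 6 called genes of each list by size of change, and the 5 genes most like Bnip3 and Mfn2. Rrm2b, Atg5 and Bcl2l13, which complete counts, and neighbouring genes and pseudogenes were named after their values were seen. So were Ppargc1a, which was not tested, and Plin2, Afg3l2, Chchd6, Pax5, Gzmb, Klrc1, Klrd1 and Ncr1, which were tested and not called. Counting error is larger for genes with few counts, such as Pink1.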

Additional observations from a re-analysis of the deposited data

How the results depend on the processing

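Each of Bnip3, Bnip3l, Pink1 and Mfn2 kept its direction and its call in all 15 alternative fits, with log2FC values from 1.46 to 1.98, 1.12 to 1.38, 0.60 to 0.74 and -0.54 to -0.46, and adjusted p of at most 0.00184, 0.000756, 0.0423 and 0.00610. Of 150 values of the 10 genes in these fits, 140 kept direction and call, 6 (Fis1) became called and 4 (Mff) changed sign, to 0.020 with upper-quartile factors, 0.025 without vehicle replicate 1, 0.043 without S1P replicate 2 and 0.013 without S1P replicate 3 (from -0.078 to 0.043 without each library in turn). The count of lower members was thus 2 with DESeq2, total count only, no filter on low counts or no fold change threshold, and 1 to 2 without each library. At a log2FC of at least 1, 383 genes were higher and 82 lower, 2 members were higher (Bnip3 and Bnip3l) and 0 lower, 0 genes of the 7 lists were higher and 2 lower, and 10 hypoxia-inducible genes were higher. Without each library in turn, lower genes of the 7 lists numbered 14 to 23. Scaling moved the median of all genes by at most 0.03 in size. Whether equal replicate numbers mark paired samples could not be settled with 3 libraries a group. Correlations of the deviations from the group means were 0.120, -0.00598 and 0.0483 for numbers 1 to 3. Between unequal numbers they ran from -0.100 to 0.0496. With the replicate number as a block, 1697 genes were higher and 1423 lower, and the calls of the 10 genes were as without it. Pink1 had the fewest counts of the 10 genes, 68 to 142 a library, and 3 libraries a group limit every interval.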
